A study of Mus musculus with 6 samples.

Results

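Polycomb repressive complex 2 (PRC2) places methyl groups on lysine 27 of histone H3 (H3K27), and the trimethylated form of this residue marks repressed chromatin. Its core holds a catalytic subunit, which is either Ezh2 or Ezh1, together with Eed, which binds the trimethylated mark, Suz12, which holds the complex together, and a histone-binding protein, Rbbp4 or Rbbp7. Jarid2 is a cofactor that helps to bring the complex to chromatin, and Kdm6a (UTX) and Kdm6b (JMJD3) are demethylases that remove the mark. These 9 genes were chosen by symbol as the writers and erasers of H3K27 methylation, and all 9 were found among the 13024 genes of the deposited count table.

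RNA-Seq was performed on lenses of E14.5 mouse embryos of mixed C57BL/6 and FVB background. Each library came from a pool of 10 lenses taken from 5 embryos. There were 3 pools of Gata3 CKO lenses, in which both floxed Gata3 alleles were exposed to Cre under a Pax6 enhancer and promoter (Gata3 f/f, Pax6-Cre/+), a driver active in lens and corneal precursors of the head surface ectoderm. There were 3 pools of control lenses without Cre, described as Gata3 f/wt in one place and Gata3 f/f in another and labelled wild type, so that by both accounts of the genotype the control carried a floxed allele as well. Cre was present in the CKO group alone, and its own effect and that of the deletion cannot be told apart. The study stained lens fibre cell nuclei in E14.5 sections for H3K27me3, whereas the RNA here came from pooled whole lenses. The comparison here asks whether mRNA of the enzymes that write and erase this mark differed between CKO and control.

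Libraries held 15157230 to 18811104 fragments counted on genes. Values are given as CPM, which are counts scaled to a common library size with edgeR's TMM factors, and the test covered the 12879 genes that reached 10 counts in 3 or more of the libraries. Counts of the members ran from 370 (Ezh1) to 7979 (Rbbp4) per library. Gata3 itself had 8.71 to 27.2 CPM in control and 46.5 to 59.0 CPM in the libraries labelled CKO (log2 fold change 1.72, adjusted p 0.650 by edgeR). Each library labelled CKO thus held more counts of the targeted gene than any control. Counts are per gene and do not resolve the floxed exon, over which the study assessed the deletion, and every direction below is that of the labels. Lens markers were present in all pools, with 16 crystallin genes summing to 52089 to 189398 CPM. Control replicate 2 stood apart, with the highest sums of crystallins (189398 CPM) and of 13 fibre genes (25298 CPM) and the lowest sum of 19 proliferation genes (3020 CPM, against 3564 to 4153 CPM in the other libraries). Markers of neighbouring tissue also differed between pools, the sum of 11 retina genes from 795 to 1772 CPM and that of 10 mesenchyme genes from 238 to 4045 CPM. In whole pools, fewer cells of a type cannot be told apart from less RNA in each cell.

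Promoter sequence is shown for the members whose level followed another measure across the pools (Ezh2, Suz12, Eed and Kdm6a, described below). RefSeq windows of 250 bases before to 50 after the start of transcription (GRCm38.p6, the assembly of mm10) were held for 8 of the 9 members (all but Kdm6b). They were searched on both strands for an E2F motif, spelled TTTCCCGC, TTTCGCGC, TTTGCCGC or TTTGGCGC and bound by factors that drive genes of the cell cycle, and for a GATA motif, bound by Gata3 and its relatives and spelled AGATAA, where T was also accepted as the first base and G as the last. No spelling of either motif holds a spelling of the other. An E2F spelling was found in 2 of the 9 windows of the members (Jarid2 has a pair of starts), against 2.26% of 32851 windows of all genes. A GATA spelling was also found in 2 of 9, against 29.8% of all windows. The stretches below run 5′ to 3′ along the gene's own strand, with each match in capitals, and a match is only a match of letters. The whole stretch of Ezh2 lies within the gene coordinates given for it further on, which reach farther upstream than the RefSeq start.
Ezh2 (chr6:47595011-47595120, reverse strand, 90 bases before to 20 after the start, with GATA and E2F matches): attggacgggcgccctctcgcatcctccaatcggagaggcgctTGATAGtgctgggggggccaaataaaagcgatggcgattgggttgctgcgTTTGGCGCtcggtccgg
Suz12 (chr11:79992856-79992935, forward strand, 250 to 171 bases before the start, with an E2F match): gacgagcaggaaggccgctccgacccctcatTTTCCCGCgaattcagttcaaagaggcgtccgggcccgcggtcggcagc
Eed (chr7:89980977-89981066, reverse strand, 90 bases up to the start, no match in the whole window): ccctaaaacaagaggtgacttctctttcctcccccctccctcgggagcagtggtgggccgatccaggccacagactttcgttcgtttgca
Kdm6a (chrX:18162385-18162464, forward strand, 190 to 111 bases before the start, with a GATA match on the other strand): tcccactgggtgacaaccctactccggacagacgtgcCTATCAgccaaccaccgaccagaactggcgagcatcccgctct

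All 9 genes were tested, and none passed the test for a change. By the quasi-likelihood test of edgeR, 0 members reached an adjusted p under 0.05, as did 0% of all 12879 genes. At an unadjusted p under 0.05 the count was again 0 of 9, against 3.55% of all genes. In 0 of the 9 the control and CKO values lay fully apart, against 8.36% of all genes. DESeq2's Wald test, which called 0.661% of its genes at an adjusted p under 0.05, and limma voom, which called 0%, also called 0 of the 9. The log2 fold changes ran from -0.04 for Ezh1 to 0.13 for Jarid2, with 6 genes above 0 and 3 below, and their median was 0.03, against 0.00187 over all genes tested. The median size of the log2 fold change was 0.0385 in the members and 0.0870 over all genes. A high p does not show that the groups were equal, so the 95% intervals are given: in 8 of 9 genes the interval lay within 0.5 of 0 on the log2 scale (a fold of 1.41), and in Ezh2 it ran from -0.43 to 0.53.

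**Figure D1:**
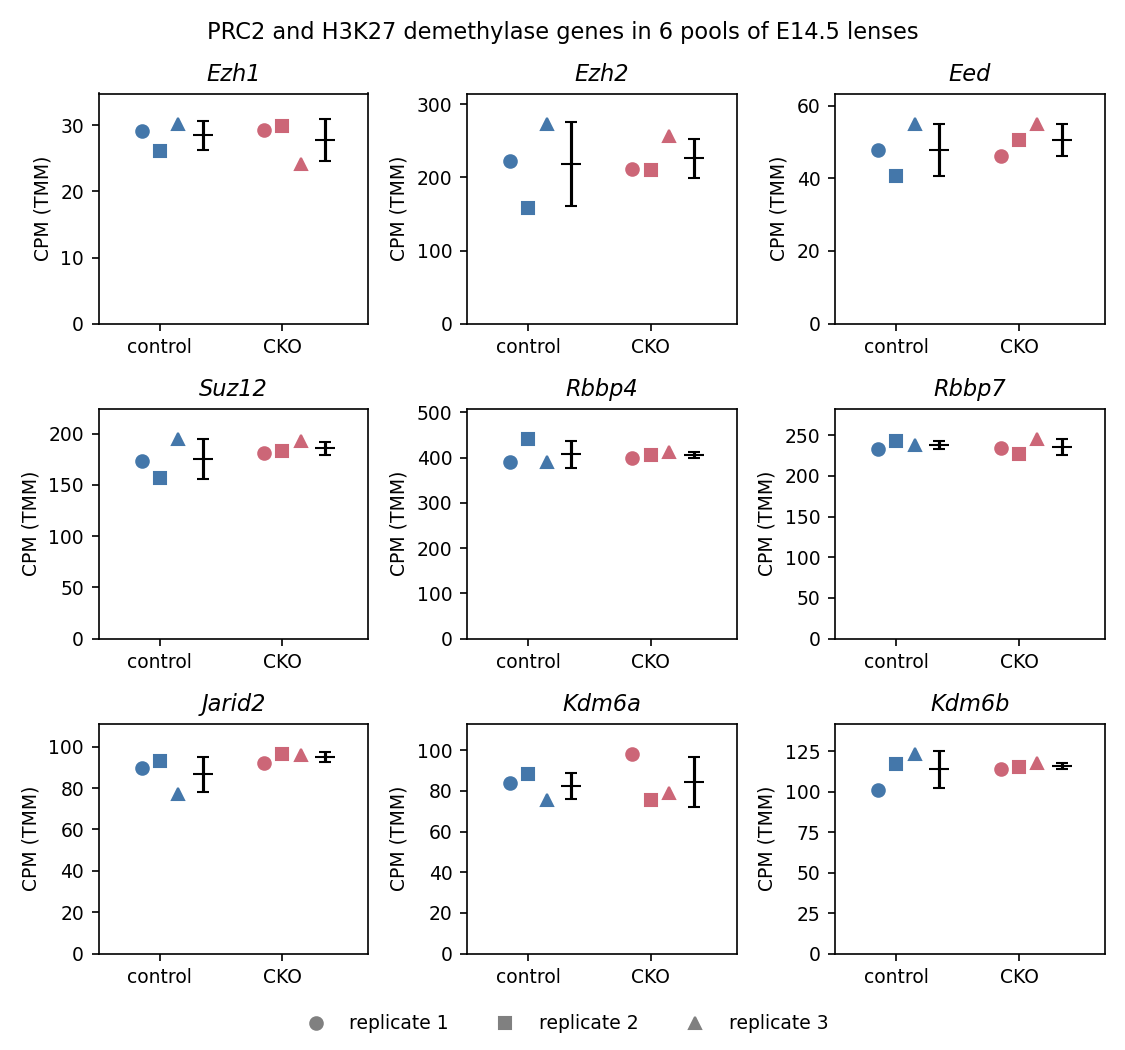
CPM of each of the 9 genes (vertical axis, from 0) in the 3 control and 3 CKO pools, with the symbol giving the replicate and the black bar the mean ± SD of 3 pools. Control and CKO values overlapped in all 9 genes, and Ezh2 spread most, from 158 to 274 CPM.

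The catalytic subunits differed widely in level. Ezh2, the main H3K27 methyltransferase of dividing cells, lies on chromosome 6 (47530139–47595341, reverse strand). It had 222, 158 and 274 CPM in control replicates 1, 2 and 3 and 211, 210.5 and 256 CPM in CKO replicates 1, 2 and 3. The lowest and the highest pool were both controls, and all 3 CKO values fell between them. Means were 218 ± 57.7 CPM (SD, n = 3) in control and 226 ± 26.1 CPM (SD, n = 3) in CKO. The log2 fold change estimated by edgeR was 0.05 with a standard error of 0.20 and an adjusted p of 1.0. This value is within the spread of the control pools alone, and its sign turned when control replicate 2 (-0.12) or CKO replicate 3 (-0.0488) was left out.

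Ezh1, the paralog with weaker methyltransferase activity that is prominent in resting cells, lies on chromosome 11 (101191115–101226463, reverse strand). Its values were 29.2, 26.1 and 30.3 CPM in control and 29.3, 29.9 and 24.2 CPM in CKO. A single CKO pool, replicate 3, was lowest, and the other 5 pools lay within 26.1 to 30.3 CPM. The log2 fold change was -0.04 (95% interval -0.32 to 0.24), and it was above 0 without control replicate 3 (0.00672) or CKO replicate 3 (0.0523). Per kilobase of exon, Ezh2 exceeded Ezh1 by 11.4, 9.08 and 13.5 times in the control pools and by 10.8, 10.5 and 15.8 times in the CKO pools. The ratio was therefore in favour of Ezh2 in every library, as it was with exons of all annotated transcripts as the length (6.76 to 11.8 times). It did not differ between groups beyond their spread (difference in log2 ratio 0.12, exact two-sided permutation test, p = 0.700, where 3 pools against 3 allow no p under 0.1), and the difference was below 0 without control replicate 2 (-0.0279) or CKO replicate 3 (-0.0682).

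Eed and Suz12 are required for the catalytic subunit to be stable and active. Eed, on chromosome 7 (89954654–89980983, reverse strand), had 47.8, 40.5 and 54.9 CPM in control and 46.0, 50.6 and 55.1 CPM in CKO. The estimated log2 fold change, 0.08, had a 95% interval from -0.23 to 0.39, and without control replicate 2 it was -0.0105. Suz12, on chromosome 11 (79993106–80034123, forward strand), had 173, 157 and 195 CPM in control and 181, 183 and 193 CPM in CKO. In both genes control replicate 2 was the lowest of the 6 pools, and replicate 3 of each group gave the highest pair of values. The log2 fold change of Suz12 was 0.08 (95% interval -0.14 to 0.31). It stayed above 0 with each library left out in turn (0.0232 to 0.170).

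Rbbp4 and Rbbp7 are histone chaperones that also serve in NuRD, Sin3 and other chromatin complexes. Of the 9 genes these had the smallest ratios of highest to lowest pool. Rbbp4, on chromosome 4 (129307100–129335370, reverse strand), had 392, 442 and 389.5 CPM in control and 399, 406 and 412 CPM in CKO, a log2 fold change of -0.00799 (95% interval -0.20 to 0.19). It was highest in control replicate 2, the pool in which Ezh2, Eed and Suz12 were lowest. Its sign turned without that pool (0.0656) or without CKO replicate 1 (0.00316). Rbbp7, on the X chromosome (162760402–162779092, forward strand), had 233, 243 and 237.5 CPM in control and 234, 227 and 246 CPM in CKO. Its highest pool was only 1.08 times its lowest, and the SD of its log2 CPM over the 6 pools (0.0428) stood at percentile 1.41 of all genes tested. The log2 fold change was -0.0135 (95% interval -0.17 to 0.15), and it was above 0 without control replicate 2 (0.0136) or CKO replicate 2 (0.0129). The paralogs shared 0 of their 50-base stretches, but Rbbp7 shared 6.97% of its stretches with a processed pseudogene, Gm6382. Exons on the opposite strand overlap the annotated exons of 6 members, by 8.94% (Sync) and 9.10% (Gm26722) in Rbbp4, 6.82% in Eed, 5.98% (Txlng) in Rbbp7, 4.11% in Kdm6b, 3.6% in Suz12 and 2.61% in Ezh2. Of these partners only Txlng is in the count table. How shared fragments were assigned is not given in the sources used here.

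Jarid2, on chromosome 13 (44729474–44921643, forward strand), had the largest fold change of the 9 genes. Its values were 89.7, 93.0 and 76.9 CPM in control and 92.0, 96.7 and 95.9 CPM in CKO. Control replicate 3 was the lowest pool, whereas control replicate 2 lay among the CKO values. Means were 86.6 ± 8.51 CPM (SD, n = 3) and 94.9 ± 2.51 CPM (SD, n = 3). For this difference edgeR gave a log2 fold change of 0.13, with a standard error of 0.0888, a 95% interval from -0.08 to 0.34, an unadjusted p of 0.179 and an adjusted p of 1.0. It kept its sign with each library left out in turn, from 0.0543 without control replicate 3 to 0.198 without control replicate 2.

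Of the demethylases, Kdm6b lies on chromosome 11 (69398508–69413675, reverse strand). It had 101, 117 and 124 CPM in control and 114, 116 and 118 CPM in CKO. The CKO pools were close together (SD 1.68 CPM, against 11.7 CPM in control) and fell inside the range of the controls. The log2 fold change was 0.03 (95% interval -0.18 to 0.24), and -0.0374 without control replicate 1. Kdm6a, on the X chromosome (18162575–18279936, forward strand), had 83.7, 88.2 and 75.7 CPM in control and 98.4, 75.4 and 79.2 CPM in CKO. Both the highest and the lowest pool were CKO. The estimated log2 fold change, 0.03, had a 95% interval from -0.25 to 0.32, and it was below 0 without control replicate 3 (-0.0272) or CKO replicate 1 (-0.0932).

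**Figure D2:**
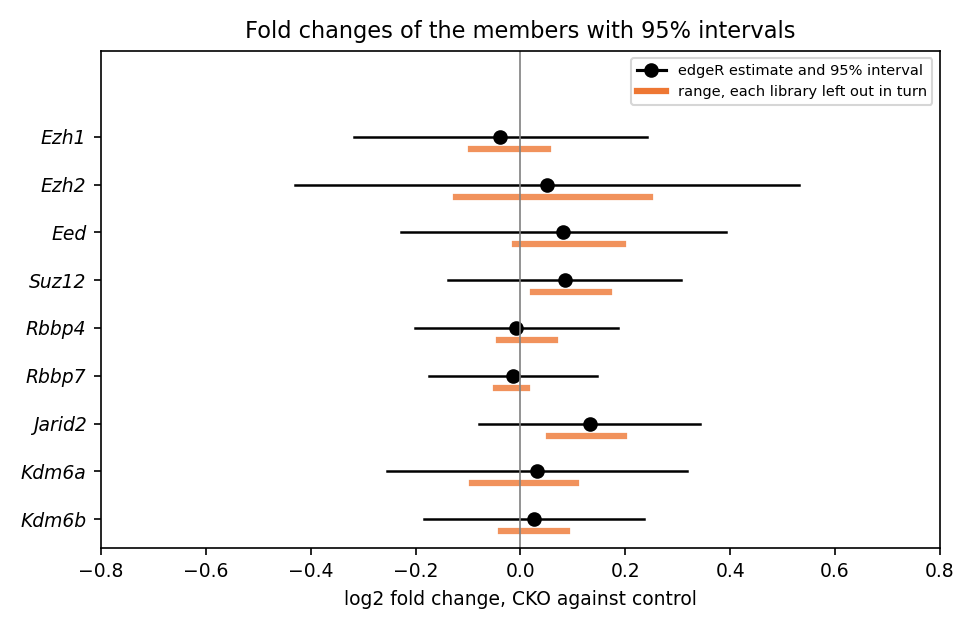
Log2 fold change of CKO against control for each gene (horizontal axis), as the edgeR estimate (point) with its 95% interval (black line) and the range of estimates with each library left out in turn (orange bar). Every interval holds 0, and the orange bars of Suz12 and Jarid2 alone lie wholly above 0.

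The balance of writers and erasers was compared by ratios within each library, which do not depend on library scaling. Per kilobase of exon, summed Ezh1 and Ezh2 exceeded summed Kdm6a and Kdm6b by 2.95, 1.93 and 3.35 times in control and by 2.44, 2.73 and 3.13 times in CKO. Control replicates 2 and 3 marked the ends of this range. The size of the ratio depended on the exon length used, an alternative added after the data were seen. With exons of all annotated transcripts it was 1.52, 0.996 and 1.68 in control and 1.26, 1.39 and 1.58 in CKO, so that no excess of the writers was left in control replicate 2. The log2 ratios differed by 0.0433 between groups (exact two-sided permutation test, p = 0.900), by 0.0400 with the other length (exact permutation p = 0.900), and by -0.19 without control replicate 2 and -0.0492 without CKO replicate 3. Neither Rbbp4 to Rbbp7 (difference 0.00850, exact permutation p = 0.900) nor Kdm6a to Kdm6b (difference -0.00560, exact permutation p = 1) differed beyond the spread of the pools. After adjustment over the 4 ratios tested, including Ezh2 to Ezh1, each had p = 1 from the exact permutation test.

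Levels were then ordered per kilobase of exon, using exons of transcripts matched to RefSeq. Rbbp7 was highest (mean 106 CPM per kb over 6 pools), followed by Rbbp4 (92.3), Ezh2 (79.2), Suz12 (41.3), Eed (23.8), Kdm6b (17.3), Jarid2 (14.7), Kdm6a (14.1) and Ezh1 (6.71 CPM per kb). Neighbours whose ranges over the 6 pools overlapped were Rbbp4 and Ezh2, Kdm6b and Jarid2, and Jarid2 and Kdm6a. All other neighbours in this order were separate, and Ezh1 was lowest in each pool. With exons of all annotated transcripts as the length, Rbbp7, Rbbp4 and Ezh1 kept their places, but Suz12 (36.5 CPM per kb) passed Ezh2 (33.2), Kdm6b (16.5) passed Eed (12.8), and Kdm6a (9.95) passed Jarid2 (9.34).

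**Figure D3:**
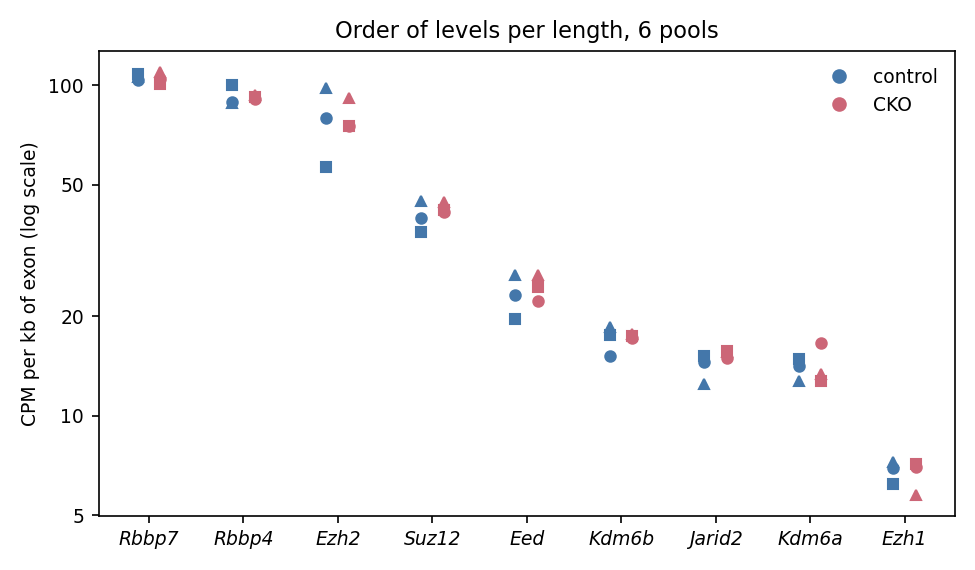
CPM per kilobase of exon on a log axis for each gene, ordered by mean, with 1 point per pool (blue control, red CKO, symbols for the replicates). Ezh1 lies between 5.77 and 7.22 CPM per kb, below every value of Ezh2 (56.5 to 97.7 CPM per kb).

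The 9 members did not all follow the same pattern across pools, although Ezh2, Eed and Suz12 rose and fell alike in part. Ezh2 varied most of the 9, its highest pool being 1.73 times its lowest, and Eed (1.36 times) and Suz12 (1.24 times) had their lowest value in the same pool. Eed and Suz12 were the members most alike after Rbbp4 and Rbbp7, with a root mean square difference of 0.0608 between their centred log2 CPM. This measure depends on the size of the variation as well as its direction, so genes that vary little, such as Rbbp4 and Rbbp7, come out alike. Ezh2 and Kdm6a were the least alike of the 36 pairs (0.340). Among 10412 other genes with a mean of at least 10 CPM, the profiles nearest to that of Ezh2 were those of Ephb2 (root mean square difference 0.0206), Ncs1 (0.0222) and Dhcr7 (0.0263). Ephb2 encodes an ephrin receptor, Ncs1 a neuronal calcium sensor and Dhcr7 an enzyme of cholesterol synthesis. The CPM of Ephb2 were 225, 159 and 282 in control and 220, 211 and 262 in CKO, close to those of Ezh2 in each pool.

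The level of Ezh2 followed that of the 19 proliferation genes, such as Mki67 and Mcm2, over the 6 pools. Mean log2 CPM of this list was 7.11, 6.79 and 7.20 in control and 7.11, 7.05 and 7.23 in CKO. Pearson's r with Ezh2 was 0.966 (exact permutation p = 0.00694) and Spearman's rho 0.943 (exact permutation p = 0.0167), and r was 0.934 without control replicate 2 and CKO replicate 3, the 2 pools farthest from the median of the list. For Eed r was 0.905 (exact permutation p = 0.0125) and rho 0.829 (exact permutation p = 0.0583), and for Suz12 r was 0.928 (exact permutation p = 0.0167) and rho 0.714 (exact permutation p = 0.136). Their r was smaller, 0.583 and 0.630, without the same 2 pools. The pools left are too few to tell these values from that of Ezh2. Without the same pools, the r of Jarid2 with proliferation went from -0.31 to -0.99. The 11 retina genes (of 12 listed, and tested here after their levels were seen) had an r of 0.989 with Ezh2 (exact permutation p = 0.00417; rho 0.943, exact permutation p = 0.0167), and 0.935 without control replicates 2 and 3. With Suz12 the retina list had an r of 0.948 (exact permutation p = 0.00972; rho 0.829, exact permutation p = 0.0583) and with Eed one of 0.915 (exact permutation p = 0.0167; rho 0.714, exact permutation p = 0.136), and these were 0.686 and 0.640 without those pools. With the lens fibre genes r was -0.70 for Ezh2 (exact permutation p = 0.129; rho -0.31, exact permutation p = 0.564), -0.79 for Eed (exact permutation p = 0.0542; rho -0.71, exact permutation p = 0.136) and -0.86 for Suz12 (exact permutation p = 0.0361; rho -0.66, exact permutation p = 0.175). Without control replicate 2 and CKO replicate 3 these were 0.377, -0.0576 and -0.31, each smaller in size, over few pools. Rbbp4 ran the other way, with an r of -0.80 with proliferation (exact permutation p = 0.0917; rho -0.43, exact permutation p = 0.419) that was -0.86 without the 2 pools farthest out. With the retina list its r was -0.83 (exact permutation p = 0.0583; rho -0.60, exact permutation p = 0.242), but 0.519 without control replicates 2 and 3. With the fibre genes its r was 0.541 (exact permutation p = 0.274; rho -0.0857, exact permutation p = 0.919), but -0.88 without control replicate 2 and CKO replicate 3. The sign of r for Rbbp4 thus held for the proliferation list alone. Control replicate 2 stood at the end of the range of all 3 lists, and their part in the level of Ezh2 was not tested. In all, 45 relations between the 9 members and 5 measures (proliferation, retina, fibre, Xist and Y-linked genes) were computed, 9 had an exact permutation p under 0.05 by Pearson's r, and 0 passed after Benjamini-Hochberg adjustment (smallest adjusted p = 0.0625 by exact permutation of r, and 0.188 of rho). With 6 pools, a single relation could not pass adjustment over 45 on its own, however strong it was. Groups of 3 pools were too small for the relations to be recomputed within control or CKO.

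**Figure D4:**
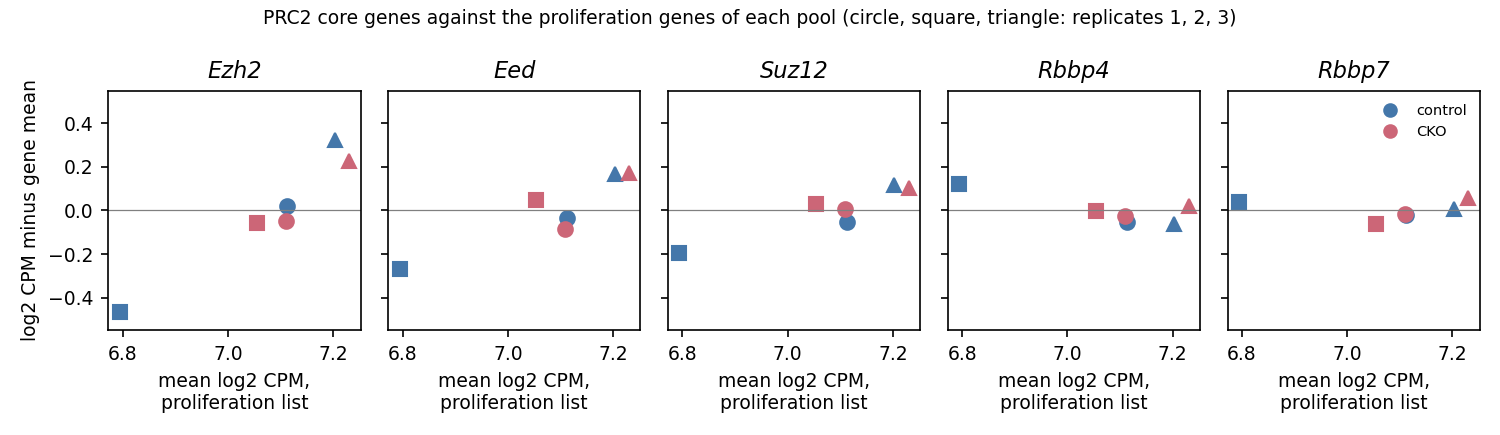
Log2 CPM of 5 PRC2 core genes, each minus its own mean over the pools (vertical axis), against the mean log2 CPM of 19 proliferation genes (horizontal axis), with 1 point per pool. Control replicate 2 (blue square) is lowest for Ezh2, Eed and Suz12 and highest for Rbbp4, while Rbbp7 stays near 0 in all pools.

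Kdm6a varied with the sex-linked RNA of the pools. Kdm6a is known to escape X inactivation in the mouse, so that female cells transcribe both copies, and Uty is its paralog on the Y chromosome, whose protein has little demethylase activity. Xist, the RNA of the inactive X, had 1255, 1734 and 661 CPM in control and 2726, 759 and 853 CPM in CKO, and Uty had 26.99, 16.8 and 33.8 CPM in control and 10.3, 32.8 and 24.8 CPM in CKO. Xist and Y-linked RNA were thus both present in every pool, in unequal amounts, and the labels do not give the sex of the embryos. CKO replicate 1 had the most Xist, the least Uty and the most Kdm6a, and control replicate 2 came next in all 3 measures.

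Over the 6 pools, log2 CPM of Kdm6a and Xist had a Pearson's r of 0.991 (exact permutation p = 0.00278) and a Spearman's rho of 0.943 (exact permutation p = 0.0167). Without control replicate 2 and CKO replicate 1, the 2 pools with the most Xist, r was 0.962. With the mean of the 4 Y-linked genes Uty, Ddx3y, Eif2s3y and Kdm5d, r was -0.971 (exact permutation p = 0.00417) and rho -0.943 (exact permutation p = 0.0167), and r was -0.848 without the same pools. Neither relation passed the adjustment over the 45 computed (adjusted p = 0.0625 by exact permutation of r, and 0.188 of rho). With 6 pools no single relation could pass it on its own, so this result says little about their strength. Of the 8 other members, Eed had the r with Xist that was largest in size over the 6 pools (-0.77). Rbbp7, the other X-linked member, had one of 0.0433. Without control replicate 2 and CKO replicate 1, however, Kdm6b had an r of -0.97 with Xist, against -0.31 over the 6 pools. A high r over so few pools was thus not particular to Kdm6a.

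Added together, Kdm6a and Uty took 111, 105 and 109.5 CPM in control and 109, 108 and 104 CPM in CKO. The sum thus stayed within 1.06 times from lowest to highest pool, whereas Kdm6a alone ranged over 1.30 times and Uty over 3.28 times. The coefficient of variation over the 6 pools was 2.43% for the sum, 10.6% for Kdm6a and 37.9% for Uty. Sums were 108 ± 3.01 CPM (SD, n = 3) in control and 107 ± 2.56 CPM (SD, n = 3) in CKO. Only 12 of the 8565 stretches of 50 bases in Kdm6a transcripts (0.14%) are found in Uty, so few fragments could have been counted on either.

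**Figure D5:**
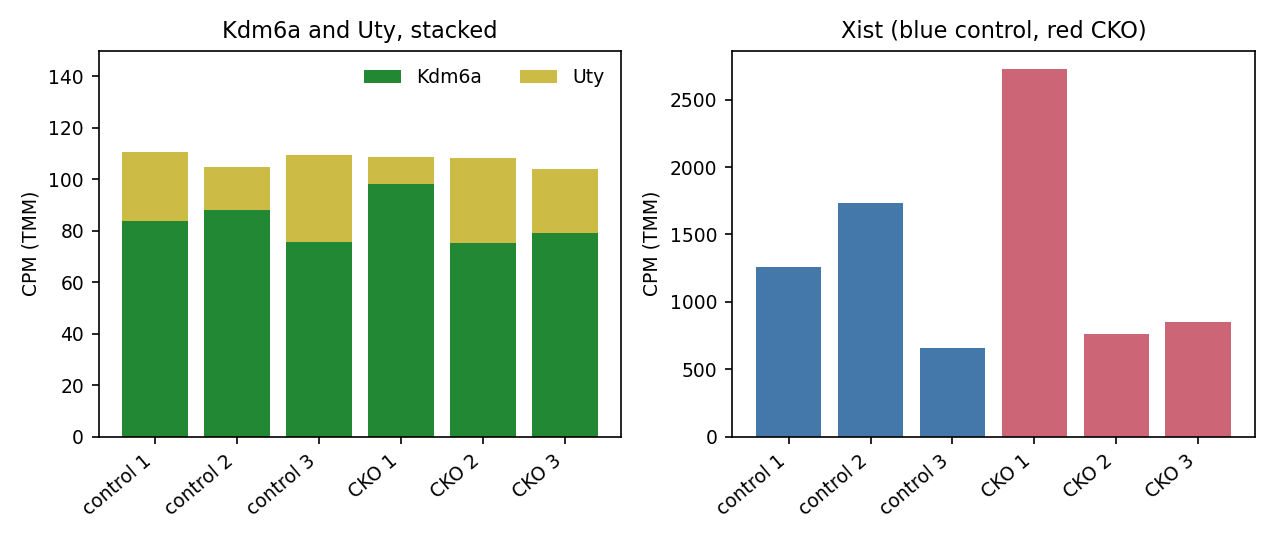
Left, CPM of Kdm6a and Uty stacked for each pool; right, CPM of Xist in the same pools (blue control, red CKO). The stacked height lies between 104 and 111 CPM in all pools, while Kdm6a is highest in CKO replicate 1, the pool with the most Xist.

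Genes that work beside the members were examined in 6 lists, of which 43 genes were tested. Of these, 0 had an adjusted p or an unadjusted p under 0.05 by edgeR, against 0% and 3.55% of all genes, and 0 were called by DESeq2 or limma voom. Their median log2 fold change was 0.00380 (25 higher and 18 lower), near that of all genes tested (0.00187). Groups lay apart in 1 of the 43, against 8.36% of all genes.

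Accessory subunits of PRC2 steer the complex to its targets, and 6 of 8 listed were tested. Their median log2 fold change was 0.0475, with values from -0.03 for Aebp2, a cofactor of Jarid2-containing PRC2, to 0.21 for Epop. The median was below 0 without control replicate 2 (-0.0109) or CKO replicate 1 (-0.00578). Epop, which links PRC2 to elongin, was scarce, with 6.46, 4.72 and 7.26 CPM in control and 7.13, 5.19 and 9.11 CPM in CKO, and its 95% interval ran from -0.44 to 0.86.

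PRC1 is the complex that ubiquitylates histone H2A and, through its Cbx subunits, binds the mark that PRC2 places. All 21 listed genes were tested, 15 with values above 0 and 6 below, and their median log2 fold change was 0.0780 (0.0263 without control replicate 2). The highest was Cbx8 (log2 fold change 0.19, 95% interval -0.21 to 0.59), which was the gene whose groups lay apart. It had 10.3, 7.68 and 10.3 CPM in control and 11.4, 10.6 and 10.4 CPM in CKO, so that 2 controls were nearly level with the lowest CKO pool. The lowest was L3mbtl2, a subunit of a variant PRC1 (-0.11, 95% interval -0.35 to 0.13).

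The deubiquitylase complex PR-DUB removes the mark of PRC1. Its 4 genes had log2 fold changes from -0.07 (Asxl2) to -0.000119 (Bap1, the catalytic subunit), with a median of -0.0430 that was 0.0488 without control replicate 3. The COMPASS complexes in which Kdm6a works beside the H3K4 methyltransferases Kmt2c and Kmt2d were represented by 9 genes, with a median of 0.00350 that ran from -0.0676 without control replicate 2 to 0.0568 without control replicate 3. Among these Kmt2d was lowest (-0.13, 95% interval -0.46 to 0.21) and Pagr1a, a subunit that binds Paxip1, was highest (0.11, 95% interval -0.12 to 0.35). Kmt2d had 151 CPM in CKO replicate 3, whereas the other CKO pools, with 205 and 206 CPM, lay inside the control range of 184 to 224 CPM. The acetyltransferases Ep300 and Crebbp, which place an activating mark on the same lysine, had log2 fold changes of -0.04 and 0.05.

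Of 41 genes listed as long-known Polycomb targets, mostly Hox genes, 1 was tested. This was Cdkn1c, which encodes the cell cycle inhibitor p57 and is repressed by PRC2 in several cell types. It had 511, 981 and 434 CPM in control and 387, 450.3 and 401 CPM in CKO. The log2 fold change was -0.64, with a 95% interval from -1.36 to 0.09 and an adjusted p of 1.0 by edgeR. Control replicate 2, the pool richest in fibre genes, held the highest value, and without it the log2 fold change was -0.18. The other listed targets were absent from the count table, which was limited to genes with a mean FPKM above 1 in control or CKO. Their levels could not be compared.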

How the data were processed

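Per the submitters' notes, the authors aligned paired-end reads of polyA-selected, stranded libraries to mm10 with TopHat 2.0.13 and counted fragments per RefSeq gene with HTSeq 0.6.1. They deposited these raw counts, without normalization, for genes with a mean FPKM (Cuffdiff 2.2.1) above 1 in control or CKO. How HTSeq treated strand and overlapping genes is not given in the sources used here. Replicates are numbered as in the sample titles.

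Counts were scaled by TMM and tested over all genes with edgeR 4.0.16 (robust quasi-likelihood fit, Benjamini-Hochberg adjustment, R 4.3.3). Ratios used an offset of 0.5 counts and log2 CPM a prior count of 1. Alternatives were DESeq2 1.42.0 (Wald test), limma 3.58.1 (voom), other scalings and filters, a replicate block, and each library left out. Tests were tried on simulated data. Exon lengths came from GENCODE M21 (GRCm38). The p-values of the fits set a difference against the spread between pools, and those by permutation set it against rearrangements of the pools. Counting error is largest for scarce genes.

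The members and lists were chosen with earlier results of these data known. Named genes are the members, sex-linked genes, Gata3, nearest profiles of a member varying by 1.5 times or more, and, per list, genes with an unadjusted p under 0.05 and the extremes. Kmt2c, Paxip1, Mki67, Mcm2, Gm6382, Gm26722, Sync and Txlng are named outside this rule. Histone staining was not analysed here.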

Additional observations from a re-analysis of the deposited data

How the results depend on the processing

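No member passed an adjusted p of 0.05 under any of the 8 other fits or with any library left out (smallest adjusted p 0.546). Under DESeq2, limma voom, RLE factors, library sizes without crystallins, both filters and the replicate block, every member kept its sign. With upper-quartile factors Rbbp4 turned from -0.00799 to 0.00111. The replicate numbers of the titles did not pair the pools (correlations of deviations from the group means over genes -0.49, 0.0899 and 0.442), and not every pool correlated best with its own number; with the replicate block 0 members were called and Ezh2 had a log2 fold change of 0.0797.

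With each library left out in turn, log2 fold changes were -0.0938 to 0.0523 for Ezh1, -0.12 to 0.25 for Ezh2, -0.0105 to 0.20 for Eed, 0.0232 to 0.17 for Suz12, -0.0400 to 0.0656 for Rbbp4, -0.0458 to 0.0136 for Rbbp7, 0.0543 to 0.20 for Jarid2, -0.0932 to 0.11 for Kdm6a and -0.0374 to 0.0894 for Kdm6b. Members whose groups lay apart numbered 0 to 2: Rbbp4 and Jarid2 without control replicate 2 (21.8% of all genes lay apart there), Suz12 without control replicate 3 (27.7%) and Jarid2 without CKO replicate 1 (15.6%). Medians were 0.0164 to 0.0823 for the members, -0.0109 to 0.143 for PRC2 accessory genes, 0.0263 to 0.118 for PRC1, -0.0860 to 0.0488 for PR-DUB, -0.0676 to 0.0568 for COMPASS, -0.0607 to 0.0777 for H3K27 acetylation and -0.85 to -0.18 for Cdkn1c, the single known target tested. The differences in log2 ratio were -0.0682 to 0.26 for Ezh2 to Ezh1, -0.0223 to 0.0526 for Rbbp4 to Rbbp7, -0.13 to 0.0902 for Kdm6a to Kdm6b and -0.19 to 0.21 for writers to erasers. The cause of these shifts was not tested.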
